A study of Homo sapiens with 33 samples.

Results

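Tiles 10 to 67 form the middle stretch of the MS2 pool, a set of synthetic barcoded oligonucleotides named ms2-4x and numbered upwards from 1. The stretch was taken by tile number and holds 58 of the tiles of that pool (105 in all) and of the 3358 tiles in the 5 pools of the study, with 50 barcodes for each tile. Its borders were placed where the ratio of immunoprecipitate to Input changed along the numbering, so these ratios are given as a description. The recipient cells were HEK293T, a line derived from human embryonic kidney, and they also overexpressed MCP carrying both a FLAG and an HA tag. The cells were harvested 48 hours after transfection and fixed with 0.1% formaldehyde for 10 minutes. RNA was recovered through FLAG (3 libraries) or through HA (3 libraries) and set against Input (3 libraries), and all 3 groups carried the same overexpressed protein. No precipitation from cells without tagged MCP was among these groups, so recovery with MCP and recovery with any precipitate cannot be told apart.

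MCP is the coat protein of bacteriophage MS2. It binds an RNA hairpin of the phage genome with high affinity, and the pair is widely used to tether proteins to RNA or to pull an RNA out of a lysate. FLAG and HA are short peptide epitopes recognised by different antibodies. In a tiled pool each oligonucleotide is transcribed with its barcode, so the share of reads that a tile holds in the precipitate, divided by its share in Input, measures its recovery relative to the other tiles. The tiles and barcodes are named by number only, and their sequences, their positions and the meaning of 4x in the names were not used here.

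The stretch held 1170562, 1714463 and 1588934 reads in the FLAG libraries, 1467932, 1633005 and 2019799 in the HA libraries, and 1318643, 1558344 and 1459525 in the Input libraries. These were 25.8% to 29.8% of all reads in FLAG, 26.6% to 29.5% in HA and 31.1% to 32.1% in Input. Tiles 2 to 9 moved the other way, at 62.3% to 63.2% of the reads in FLAG, 61.3% to 64.0% in HA and 50.04% to 51.1% in Input. Tiles 68 to 105 held 7.89% to 10.9% in FLAG, 8.26% to 9.34% in HA and 17.5% to 18.0% in Input. All 58 tiles of the stretch passed the filter on low counts, as did 104 of the 105 tiles of the pool. The remaining one, ms2-4x:1, had no read in any library.

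Below, levels are CPM, read counts scaled to a common library total after TMM scaling, which sets the bulk of tiles equal between libraries, and log2 fold changes are fitted values with their standard error (SE). Each SE rests on 1 estimate of spread per tile, shared by all 3 groups, although the groups differed in spread. Over the stretch, the SD of CPM between libraries as a share of their mean had a median of 16.8% in FLAG. That median was 9.17% in HA and 6.69% in Input, so a like SE in FLAG and HA does not mean equal precision. In Input the tiles of the stretch were of similar abundance. Their mean level ran from 2261 CPM for ms2-4x:64 to 9516 CPM for ms2-4x:54, with a median of 4764 CPM. Tiles 2 to 9 were far more abundant, with a median of 52634 CPM, and tiles 68 to 105 had a median of 3761 CPM. The tile of middle rank, ms2-4x:43, stood at 5849, 7085 and 5473 CPM in FLAG, 6257, 6033 and 6329 CPM in HA, and 5374, 4016 and 4769 CPM in Input. The most abundant, ms2-4x:54, stood at 9440, 10309 and 9016 CPM in FLAG, 8754, 9070 and 10413 CPM in HA, and 9933, 8940 and 9673 CPM in Input. Its 3 groups overlapped, and its log2 fold changes were 0.01 ± 0.13 in FLAG and -0.02 ± 0.13 in HA. The scarcest, ms2-4x:64, had 2541, 3038 and 3095 CPM in FLAG, 2407, 2348 and 2595 CPM in HA, and 2247, 2710 and 1828 CPM in Input, again with overlap between the groups.

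The tiles on either side of the borders differed as follows. Just inside the lower border, ms2-4x:10 had 7626, 7783 and 8591 CPM in FLAG, 6205, 7697 and 7348 CPM in HA, and 5396, 4960 and 5211 CPM in Input. Just outside it, ms2-4x:9 had 26236, 31781 and 28444 CPM in FLAG, 28595, 31062 and 27768 CPM in HA, and 23203, 20819 and 21265 CPM in Input. Both tiles lay above Input with both antibodies, while their Input levels averaged 5189 CPM for ms2-4x:10 and 21763 CPM for ms2-4x:9. At the upper border ms2-4x:67 was at 6529, 8728 and 9159 CPM in FLAG, 8032, 8989 and 8509 CPM in HA, and 6170, 6732 and 6805 CPM in Input. The next tile, ms2-4x:68, was at 1852, 1180 and 1112 CPM in FLAG, 1362, 1454 and 1187 CPM in HA, and 3309, 3489 and 2561 CPM in Input. Its fitted values of -1.18 ± 0.24 in FLAG and -1.23 ± 0.24 in HA stand beside 0.31 ± 0.15 and 0.37 ± 0.15 for ms2-4x:67.

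Most tiles of the stretch lay within a narrow band around Input, and a minority lay well below it. In FLAG the log2 fold changes ran from -1.41 to 0.62 with a median of 0.16, against a median of -0.022 over all 104 tested tiles. In HA they ran from -1.18 to 0.63 with a median of 0.12, against -0.0035 over all tiles. The quartiles were -0.24 and 0.35 in FLAG and -0.21 and 0.37 in HA, so the long tail was on the low side. Tiles 68 to 105 had medians of -0.99 in FLAG and -1.02 in HA, and tiles 2 to 9 had medians of 0.58 and 0.61. FLAG and HA share the Input libraries, so their values are given side by side and their likeness is not read as agreement.

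The sign of a tile near 0 depends on the scaling. With TMM scaling 37 of the 58 tiles were above 0 in FLAG and 38 in HA, whereas scaling by library size alone put 22 and 20 there. That change moved the median of all tiles by -0.27 in FLAG and -0.29 in HA, and the median of the stretch to -0.12 and -0.18. The order of the tiles within a library does not depend on the scaling.

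edgeR called 13 tiles of the stretch higher and 10 lower in FLAG than in Input. Of all tested tiles 21.2% were called higher and 31.7% lower. In HA it called 15 higher and 7 lower, against 23.1% and 30.8% of all tested tiles. Because this contrast set the borders, nothing is read from these counts. Those for FLAG also hung on single libraries: without FLAG replicate 1, 2 or 3 the tiles called higher numbered 23, 4 and 6, and without Input replicate 1, 2 or 3 they numbered 8, 6 and 7. The tiles called lower in FLAG numbered 5 without FLAG replicate 3. In HA, 8 were called higher and 4 lower without HA replicate 2, while 7 and 8 were called higher without Input replicate 2 and 3, and 12 were called lower without FLAG replicate 1, which enters the shared estimate of spread and scaling. Scaled by library size alone, 1 tile was called higher and 16 lower in FLAG, and 0 and 16 in HA. By DESeq2 the tiles called higher and lower numbered 16 and 10 in FLAG, and 15 and 6 in HA.

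Both antibodies called 7 tiles lower: ms2-4x:23, 24, 25, 34, 44, 50 and 51. Of all tested tiles 27.9% were called lower with both, 22 of them among the 38 tiles from 68 up, and nothing is read from the count. It was 4 without HA replicate 2 and 11 without FLAG replicate 1. Under each of the 18 alternative settings tried, ms2-4x:24, 34, 50 and 51 were again called lower with both, though the changes of filter kept the same tiles. The tile ms2-4x:50 had the lowest value in FLAG, at 1843, 690 and 1227 CPM in FLAG, 2073, 1597 and 1301 CPM in HA, and 3624, 3149 and 3212 CPM in Input. Every precipitate library lay below every Input library, with FLAG replicate 2 lowest of all. The fitted log2 fold changes were -1.41 ± 0.28 in FLAG, or 0.377 of Input, and -1.01 ± 0.28 in HA, or 0.498 of Input.

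Next to it, ms2-4x:51 stood at 5124, 3637 and 2651 CPM in FLAG, 3630, 3010 and 2353 CPM in HA, and 6646, 6118 and 6510 CPM in Input. Here the HA value was the lower of the pair (-1.10 ± 0.20, against -0.76 ± 0.20 in FLAG), and the precipitate libraries again lay below Input. The tile ms2-4x:24 had the lowest value in HA, at 2370, 1737 and 1863 CPM in FLAG, 2295, 1702 and 1710 CPM in HA, and 4285, 3950 and 4740 CPM in Input. Its log2 fold changes were -1.12 ± 0.24 in FLAG and -1.18 ± 0.24 in HA, so the precipitates held under 0.5 of the scaled Input level with both antibodies.

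Its neighbours ms2-4x:23 and ms2-4x:25 were also low. The tile ms2-4x:23 had 1595, 1101 and 1153 CPM in FLAG, 1514, 1140 and 1622 CPM in HA, and 2420, 2281 and 2595 CPM in Input. For ms2-4x:25 the levels were 2507, 2065 and 1532 CPM in FLAG, 2875, 1395 and 1674 CPM in HA, and 2875, 3385 and 3806 CPM in Input. In ms2-4x:25 replicate 1 of HA came within 1 CPM of the lowest Input library, and the groups only just failed to overlap. The call of ms2-4x:23 in HA was lost without HA replicate 2, at -0.63, where the full set gave -0.77 ± 0.24. That of ms2-4x:25 was lost in FLAG without FLAG replicate 2 (-0.73) or 3 (-0.55) and in HA without HA replicate 2 (-0.56) or 3 (-0.64). Leaving out Input replicate 2 or 3 also ended it with both antibodies, at -0.72 and -0.62 in FLAG and at -0.75 and -0.66 in HA.

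Further along, ms2-4x:34 had 2505, 1975 and 1798 CPM in FLAG, 2496, 2367 and 2162 CPM in HA, and 3909, 4561 and 4188 CPM in Input, with no overlap (-1.01 ± 0.23 in FLAG, -0.85 ± 0.23 in HA). The tile ms2-4x:44 was lower by less, at 4797, 2964 and 3471 CPM in FLAG, 4097, 4140 and 4022 CPM in HA, and 5741, 5655 and 4905 CPM in Input. Its fitted values were -0.54 ± 0.17 in FLAG and -0.41 ± 0.17 in HA. The call in FLAG was lost without FLAG replicate 2 (-0.39) or 3 (-0.49), and that in HA without any 1 of the HA libraries (-0.46, -0.42 and -0.38) and without Input replicate 1 (-0.37) or 2 (-0.38). The call in HA was also lost with RLE size factors (-0.40) and by DESeq2 (-0.40), and without tiles 1 to 9 both were, at -0.37 in FLAG and -0.28 in HA. In FLAG alone, ms2-4x:30 (-0.73 ± 0.24), ms2-4x:31 (-0.70 ± 0.24) and ms2-4x:33 (-0.61 ± 0.21) were called as well, and all 3 calls were lost without FLAG replicate 3, at -0.53, -0.51 and -0.37. Input decided some too: ms2-4x:30 was lost without Input replicate 2 (-0.71), ms2-4x:31 without Input replicate 1 (-0.65) or 3 (-0.69), and ms2-4x:33 without Input replicate 1 (-0.50). Their values in HA, -0.35 ± 0.24, -0.38 ± 0.24 and -0.43 ± 0.21, were also below 0 and their libraries did not overlap with Input, but they did not pass. These 3 tiles were not shown to differ between the antibodies: the intervals of FLAG minus HA included 0.

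The tiles below 0 with both antibodies are listed next by number. The list goes by sign alone, and whether such tiles cluster along the numbering was not tested. With TMM scaling, tiles 22 to 25, 29 to 31, 33 to 34, 44 to 46 and 50 to 51 were below 0 with both antibodies, and tiles 20, 27, 48 and 61 were so singly. In all, 18 tiles were below 0 with both, 35 above 0 with both, and 5 were split. Of the 18, 7 were called lower with both, and some lay close to 0. The tile ms2-4x:46 was at -0.004 in FLAG and -0.06 in HA, and ms2-4x:61 was at -0.02 in HA. The run from 22 to 25 had a median of -0.82 in FLAG and -0.77 in HA, and tiles 50 to 51 had medians of -1.08 and -1.05. Tiles above 0 lay between low ones, such as ms2-4x:26, directly after ms2-4x:25.

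That tile, ms2-4x:26, had 6226, 6635 and 6558 CPM in FLAG, 6601, 6383 and 6215 CPM in HA, and 4829, 4969 and 5374 CPM in Input. Every precipitate library was above every Input library. Its log2 fold changes of 0.36 ± 0.14 in FLAG and 0.34 ± 0.14 in HA stand beside -0.72 ± 0.27 and -0.76 ± 0.27 for ms2-4x:25. It was called higher with both antibodies, but the call in HA was lost without any 1 of the HA or Input libraries (0.28 to 0.39). In FLAG it was lost without FLAG replicate 2 (0.34), without any 1 of the Input libraries (0.32 to 0.40) and with only FLAG and Input in the fit (0.33).

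The 2 longest runs above 0 with both antibodies were tiles 10 to 19 and tiles 35 to 43. The first had a median of 0.30 in FLAG and 0.41 in HA, and 4 of its 10 tiles were called higher with both. The second had medians of 0.40 and 0.43, and 6 of its 9 tiles were called higher with both. Scaled by library size alone these runs broke up: 5 of 10 tiles of the first were above 0 in FLAG and 7 in HA, and 8 of 9 tiles of the second in FLAG and 6 in HA.

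Both antibodies called 13 tiles higher, which lay between 1.27-fold and 1.55-fold of Input: ms2-4x:10, 11, 12, 18, 26, 35, 37, 39, 41, 42, 43, 49 and 57. Of all tested tiles 21.2% were called higher with both, and nothing is read from the count. Without FLAG replicate 2 or Input replicate 2 it was 4, without FLAG replicate 3 or Input replicate 3 it was 6, without HA replicate 2 it was 7, and without HA replicate 1 or Input replicate 1 it was 8. The highest in FLAG was ms2-4x:10 (0.62 ± 0.15, 1.54-fold), which had 0.45 ± 0.15 in HA. The highest in HA was ms2-4x:42, at 5529, 7699 and 6366 CPM in FLAG, 6869, 8275 and 6643 CPM in HA, and 4540, 4430 and 5097 CPM in Input. Its libraries did not overlap with Input, and its log2 fold changes were 0.48 ± 0.15 in FLAG and 0.63 ± 0.15 in HA. For ms2-4x:57 the levels were 7252, 11070 and 10806 CPM in FLAG, 8229, 10429 and 11485 CPM in HA, and 6423, 6806 and 6888 CPM in Input. Again all precipitate libraries were above Input, with replicate 1 nearest to it in both antibodies (0.53 ± 0.16 in FLAG, 0.58 ± 0.16 in HA).

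Of the other high tiles, ms2-4x:11 (0.54 ± 0.16 in FLAG, 0.55 ± 0.16 in HA), ms2-4x:39 (0.54 ± 0.17 and 0.46 ± 0.17), ms2-4x:41 (0.41 ± 0.17 and 0.61 ± 0.17) and ms2-4x:49 (0.45 ± 0.16 and 0.38 ± 0.16) overlapped with Input in FLAG but not in HA. In ms2-4x:39 the FLAG libraries were at 5194, 9200 and 7703 CPM, against 5329, 5062 and 4757 CPM in Input, so FLAG replicate 1 lay within the Input range. The remaining named tiles were ms2-4x:12 (0.43 ± 0.14 in FLAG, 0.55 ± 0.14 in HA), ms2-4x:35 (0.40 ± 0.14 and 0.49 ± 0.14) and ms2-4x:37 (0.45 ± 0.15 and 0.43 ± 0.15). Scaled by library size alone, ms2-4x:10 in FLAG was the only one of the 13 tiles still called with either antibody. Among those named by rank, ms2-4x:12, 35, 41, 42 and 57 in HA kept their calls without each of the 9 libraries in turn. The call of ms2-4x:10 in HA was lost without HA replicate 2 (0.39) or Input replicate 2 (0.42), and that of ms2-4x:11 without Input replicate 1 in FLAG (0.44) and HA (0.46) and without FLAG replicate 3 in FLAG (0.40). In FLAG, ms2-4x:57 lost its call without FLAG replicate 2 (0.43) or 3 (0.45), ms2-4x:39 without FLAG replicate 2 (0.35), and ms2-4x:12 without FLAG replicate 3 (0.30). Also in FLAG, ms2-4x:42 lost it without FLAG replicate 2 (0.34), Input replicate 1 (0.46) or Input replicate 2 (0.44), and ms2-4x:35 without FLAG replicate 2 (0.39), FLAG replicate 3 (0.36) or Input replicate 2 (0.35). The calls of ms2-4x:18, 37, 41, 43 and 49 in FLAG and of ms2-4x:37, 39, 43 and 49 in HA were each lost without any 1 of at least 2 libraries, and that of ms2-4x:18 in HA without Input replicate 2 (0.38).

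The direct comparison of FLAG with HA, which the choice of the stretch did not use, gave no call. edgeR called 0 of the 58 tiles and 0% of the 104 tested. DESeq2 called 0 as well, and in edgeR an unadjusted p below 0.05 was reached by 1 tile of the stretch, or 0.962% of all tested tiles. The count was also 0 with the replicate number as a block and without each of the 9 libraries in turn. The tile with the smallest p was ms2-4x:13, at 5721, 6096 and 8478 CPM in FLAG, against 7613, 9862 and 8345 CPM in HA, with Input at 6745, 5884 and 6097 CPM. Its libraries overlapped between the antibodies, and FLAG minus HA was -0.35 ± 0.16 on the log2 scale (edgeR adjusted p = 1.00). The other 2 of the 3 smallest p values belonged to ms2-4x:51 (0.34 ± 0.20) and ms2-4x:30 (-0.39 ± 0.24), both with an edgeR adjusted p = 1.00.

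How large a difference between the antibodies these data leave room for is given by the 95% intervals. Across the 58 tiles their bounds reached -0.96, in ms2-4x:50, and 0.74, in ms2-4x:51. For 47 of the 58 tiles the interval lay within 1.5-fold in either direction, and for all 58 within 2-fold. With the replicate number as a block, which pairs FLAG with HA, the bounds reached -0.96, again in ms2-4x:50, and 0.69, in ms2-4x:64, with 46 tiles within 1.5-fold. In that fit the smallest edgeR adjusted p over the stretch was 0.992. Pair by pair, FLAG minus HA was 0.50, 0.27 and 0.17 in ms2-4x:51 and -0.17, -1.21 and -0.08 in ms2-4x:50, and 11 of the 58 tiles had 1 sign in all 3 pairs. In absolute size FLAG minus HA had a median of 0.076 over the stretch, against a median SE of 0.16, and FLAG was below HA in 31 of 58 tiles.

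Reads did not reach all 50 barcodes of every tile. Of the 2900 barcodes of the stretch, 2416, 2422 and 2734 had a read in the FLAG libraries, 2615, 2519 and 2744 in HA, and 2715, 2777 and 2823 in Input. Replicate 3 was fullest in each of the groups, and FLAG replicates 1 and 2 were emptiest. Thinned to the same 1170562 reads, 83.3%, 83.3% and 94.1% of barcodes would be seen in FLAG, 90.0%, 85.6% and 94.3% in HA, and 93.6%, 95.7% and 97.3% in Input, which keeps the low place of FLAG replicates 1 and 2. At that depth replicate 3 of FLAG and of HA lay above Input replicate 1. Barcodes that were seen were mostly well covered, with medians of 396 to 587 reads in FLAG, 457 to 603 in HA and 413 to 486 in Input. Of tiles 2 to 9, every barcode was seen in every library, and of tiles 68 to 105 10.1% to 14.6% were unseen even in Input, against 2.66% to 6.38% for the stretch.

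In the 7 tiles called lower with both antibodies, fewer barcodes were seen and those seen held fewer reads. The tiles were chosen by their low ratio, which the barcodes seen and the level per seen barcode make up, so this is a description. The 7 tiles kept 254, 204 and 287 of 350 barcodes in FLAG, 282, 236 and 293 in HA, and 317, 334 and 335 in Input. The number seen differed from Input by a median of -0.47 on the log2 scale in FLAG and -0.32 in HA, and the level per seen barcode by -0.52 and -0.50. In the 38 tiles not called the same way with both antibodies, the number seen was also lower, by medians of -0.10 in FLAG and -0.06 in HA. Their level per seen barcode differed by medians of 0.24 and 0.16. For ms2-4x:50 alone, 33, 18 and 37 of 50 barcodes were seen in FLAG, 41, 29 and 43 in HA, and 44, 46 and 47 in Input. In ms2-4x:51 the difference lay mostly in reads per barcode: 47, 43 and 43 were seen in FLAG, 47, 44 and 43 in HA, and 48, 50 and 50 in Input, while the level per seen barcode differed by -0.62 in FLAG and -0.96 in HA.

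The 13 tiles called higher with both antibodies kept 590, 615 and 643 of 650 barcodes in FLAG, 638, 623 and 642 in HA, and 621, 630 and 644 in Input. Their level per seen barcode was above that of Input by a median of 0.49 in FLAG and 0.47 in HA. These tiles were chosen by their ratio, so these values describe how the reads were spread and test nothing.

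A tile's level is the sum of its barcodes, so most barcodes of a tile far from Input lie on its side. The counts given next are therefore a description. Counting barcodes with 30 reads or more in the groups compared, those of ms2-4x:51 were above Input in 8 of 50 in FLAG and 1 of 50 in HA, and those of ms2-4x:50 in 5 of 49 and 8 of 49. At the other end, ms2-4x:57 had 44 of 50 barcodes above Input with each antibody, and ms2-4x:35 had 41 and 40 of 50. Over the 58 tiles the share above Input ran from 10.2% to 88.0% in FLAG, with a median of 53.5%. In HA it ran from 2.0% to 88.0%, with a median of 56.0%. Nearer to Input the side was mixed: ms2-4x:14, at 0.08 with both antibodies, had 24 of 49 and 24 of 50 barcodes above Input. Over the whole stretch, which pools high and low tiles, 1471 of 2886 barcodes were above Input in FLAG (51.0%) and 1556 of 2888 in HA (53.9%). Barcodes of 1 tile share its sequence and its libraries and are not replicates of the precipitation.

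Whether any barcode departed from the other barcodes of its tile was tested within tiles, which takes the tile's own ratio out. By edgeR's diffSpliceDGE, 0 of 2875 tested barcodes of the stretch passed in FLAG and 0 in HA, as did 0% of the 5030 tested in the pool. At an unadjusted p under 0.05 there were 40 in FLAG (1.39%) and 42 in HA (1.46%), against 2.45% and 2.17% of all tested barcodes. These shares are below what evenly spread p values would give at that threshold, so the test was conservative here. Barcodes also varied widely between libraries, as given below, so the counts of 0 do not show that barcodes were recovered evenly. Without FLAG replicate 3, 5 barcodes passed in FLAG, and without FLAG replicate 2, 1 did. The smallest p belonged to barcode 47 of ms2-4x:43 in both comparisons, with 476, 251 and 0 reads in FLAG, 468, 618 and 811 in HA, and 0 reads in each Input library (edgeR adjusted p = 0.313 in FLAG and 0.292 in HA). Barcode 22 of ms2-4x:61 had no read in any FLAG library, 142, 356 and 111 reads in HA, and 155, 387 and 337 in Input (edgeR adjusted p = 0.909 in FLAG). Of the 2900 barcodes of the stretch, 48 had no read in any FLAG library, 38 in any HA library and 13 in any Input library. The pattern of no read in 1 group and reads in all 6 other libraries was met by 4 for FLAG, 2 for HA and 0 for Input. It was not counted over the rest of the pool, and nothing is read from it. One of the 4, barcode 44 of ms2-4x:23 had no read in FLAG, 403, 435 and 581 in HA, and 350, 371 and 445 in Input, and did not pass (edgeR adjusted p = 1.00). In HA, barcode 25 of ms2-4x:51 and barcode 19 of ms2-4x:63 had no read in the 3 HA libraries (edgeR adjusted p = 0.854 for each). The first had 0, 348 and 472 reads in FLAG and 468, 262 and 794 in Input, so it did not meet that pattern. The second met it, with 326, 765 and 351 reads in FLAG and 59, 586 and 522 in Input.

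The spread between libraries was far larger for barcodes than for tiles, but a tile sums its barcodes, which by itself lowers its spread. The median biological coefficient of variation that edgeR estimated was 1.08 for barcodes of the stretch and 0.159 for its tiles. Equally abundant barcodes that varied independently with that median would give 0.153 for a tile, so the gap is given as a description. For tiles 2 to 9 the medians were 0.264 for barcodes and 0.111 for tiles. For tiles 68 to 105 they were 1.58 and 0.208. The value for independent barcodes was worked out for the stretch only. The share of a tile's reads held by its single most abundant barcode had a median of 5.77% to 8.15% in the FLAG libraries, 5.82% to 7.16% in HA and 5.93% to 6.07% in Input.

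Levels of single barcodes were only weakly alike between libraries. Unseen barcodes, 2.66% to 16.7% of the stretch in a library, entered at 0 CPM. The correlations given next therefore mix being seen at all with the level of barcodes that were seen. Over the 2900 barcodes, the correlation of scaled log2 levels, each taken from its tile mean, was 0.33 to 0.37 between Input libraries, 0.17 to 0.27 between FLAG libraries and 0.21 to 0.30 between HA libraries. FLAG and HA libraries of the same replicate number were at 0.20 to 0.36, and those of other numbers at 0.18 to 0.32. In tiles 2 to 9, which were far more abundant and had every barcode seen, the Input libraries were at 0.81 to 0.84. These correlations are across barcodes, which share their libraries and oligonucleotide synthesis, and are a description.

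The libraries did not spread the tiles equally. The SD of the log2 ratio to Input over the 58 tiles was 0.31, 0.58 and 0.64 in FLAG replicates 1, 2 and 3, and 0.35, 0.53 and 0.52 in the HA replicates. Replicate 1 was the narrowest with each antibody: its ratios ran from -0.86 to 0.56 in FLAG and from -0.91 to 0.55 in HA, while FLAG replicate 2 ran from -2.27 to 0.87 and HA replicate 2 from -1.34 to 0.82. The median of tiles 68 to 105 was likewise nearest to 0 in replicate 1, at -0.59 in FLAG, against -1.24 and -1.52 in FLAG replicates 2 and 3, and at -0.80 in HA, against -1.18 and -0.99 in HA replicates 2 and 3. Tiles 2 to 9 did not follow, with medians of 0.57, 0.59 and 0.56 in FLAG and 0.68, 0.65 and 0.52 in HA. The part of the sequencing depth or of the unseen barcodes in this difference was not tested.

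The order of the tiles was also compared between sets of libraries that had none in common. With FLAG and Input of 1 replicate number set against HA and Input of another, Pearson's r over the 58 tiles ran from 0.59 to 0.87 with a median of 0.75 across the 6 combinations, and Spearman's rho from 0.53 to 0.80. Values were lowest where FLAG replicate 1 was used. Between a tile in FLAG and the next tile in HA, with no library shared, r over 57 neighbouring pairs ran from 0.30 to 0.47. Input abundance of 1 library and the ratio in the other replicate numbers had r of 0.23 to 0.32 in FLAG and 0.26 to 0.29 in HA. These values are across tiles of the pool, which share their scaling, and are given without a test.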

How the data were processed

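Amplicon cDNA libraries of the MS2 pool were analysed from 1 table, which the authors deposited as raw read counts per tile and barcode, per the file headers. How reads were assigned is not given in the sources used here. No molecular identifiers were used, so intervals cover library spread and not molecule numbers. No label ties replicates to separate cultures, and their spread may be technical. Tile counts, summed over 50 barcodes, passed filterByExpr, TMM scaling and edgeR 4.0.16 (R 4.3.3, robust quasi-likelihood F test), with all 9 libraries in 1 fit. A call was a Benjamini-Hochberg adjusted p under 0.05 over the 104 tested tiles. SE came from the log2 fold change and F. Log2 levels used a prior count of 2, barcode levels log2(CPM + 1), and barcodes were tested within tiles with diffSpliceDGE. Scripts were tested on simulated data. The simulated barcodes varied less between libraries than those of the stretch, so that run does not show what the within-tile test could find here. Deviations from group means in same-numbered FLAG and HA libraries had r of 0.65, 0.14 and 0.15 over all tested tiles. Across other numbers r ran from -0.64 to 0.59, the highest for FLAG replicate 3 with HA replicate 2. Pairing of FLAG with HA was thus clear in replicate 1 only, and the block rests on the numbers alone. FLAG and HA libraries did not deviate together with Input of the same number. DESeq2 1.42.0 was among the alternatives. Named tiles were the 8 highest and 8 lowest in FLAG and in HA, the 3 smallest p of FLAG against HA, the lowest, middle and highest by Input, and the border tiles. Named barcodes were the 3 smallest p of each comparison. Tiles ms2-4x:18 and 26 were named after their values were seen. Members, lists and tests were chosen with earlier results of these data known.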

Additional observations from a re-analysis of the deposited data

How the results depend on the processing

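The tiles called in FLAG against HA stayed at 0 under all 18 alternatives. Both alternative filters kept the same tiles as the main fit, with the same medians of 0.16 in FLAG and 0.12 in HA. They could not change a result on tiles and add nothing to its support. In FLAG against Input, leaving out 1 library gave 4 to 23 tiles higher, 5 to 14 lower and medians of 0.076 to 0.25; in HA it gave 7 to 18 higher, 4 to 12 lower and medians of 0.062 to 0.16. Library size alone gave 1 higher and 16 lower with a median of -0.12 in FLAG, and 0 higher and 16 lower with a median of -0.18 in HA. Without tiles 1 to 9, 25 tiles were higher in FLAG (median 0.32) and 23 in HA (median 0.25). With only the compared groups in the fit, 7 were higher in FLAG and 24 in HA. The cause was not tested. The replicate block gave 12 higher and 10 lower in FLAG, 14 and 7 in HA, and 0 in FLAG against HA, and, among named tiles, ended the call of ms2-4x:41 in FLAG and of ms2-4x:49 in HA. RLE size factors, both filters, DESeq2 and leaving out each tile's barcode of most reads kept every one of these tile counts within 1.5 times. Even so, RLE and DESeq2 ended the call of ms2-4x:44 in HA. DESeq2 (0.39) and leaving out the barcode of most reads (0.37) ended that of ms2-4x:49 in HA. Uneven barcodes numbered 0 to 5 in FLAG when 1 library was left out, 0 in HA, and 0 with either antibody under the 5 other alternatives run for barcodes (RLE, library size alone, both filters and the block). Of 49 named calls, which include those of the border tiles ms2-4x:9 and 68 outside the stretch, 12 held under every alternative. These were the lower calls of ms2-4x:24, 34, 50, 51 and 68 with both antibodies and of ms2-4x:23 in FLAG. The only higher call among them was that of ms2-4x:10 in FLAG. None of the 49 changed sign while called. Each tile of the stretch held at least 3840 reads in every library, while barcodes seen ran down to 18 of 50.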
